A study of Mus musculus with 23 samples.

Results

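The mitochondrial genome of the mouse carries 37 annotated genes, and all 37 were found among the 55573 genes of the count table by their symbols, which start with mt-. They comprised 13 mRNA genes, 2 rRNA genes and 22 tRNA genes. Of these, 17 genes (11 mRNA genes, both rRNA genes and 4 tRNA genes) passed the filter on low counts (above 20 after scaling in 4 or more mice of any group) and were tested among 13049 genes. The RNA came from the quadriceps, a thigh muscle made mostly of fast fibers, of C57Bl6 mice (C57BL/6J in the methods) aged 8 to 10 weeks that had carried a subcutaneous pellet for 14 days and had been fasted for 5 hours. Corticosterone, the main glucocorticoid of mice, was given to 6 male and 5 female mice, in pellets that combined 50 mg of it with 50 mg cholesterol. The vehicle pellet held 100 mg cholesterol and was given to 6 male and 6 female mice. All 23 mice were of 1 strain, and neither the labels nor the methods gave a batch or a date, so that a difference in the handling of male and female samples cannot be told apart from sex.

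The mitochondrial genome is a small circle that is present in many copies per cell. It encodes subunits of respiratory chain complexes I, III and IV and of the ATP synthase, with the rRNAs and tRNAs for their translation inside the organelle, while all other mitochondrial proteins are encoded in the nucleus. Both strands are transcribed into long precursors that are cut at the tRNAs. The mature mRNAs mostly receive poly(A) tails, and the rRNAs carry only short tails. The libraries were enriched for mRNA, so the 3 classes of RNA were kept apart here, and rRNA counts stand for the molecules that passed this enrichment. The tRNA genes are 59 to 75 bases long, shorter than a read of 100 bases. A full read counted on a tRNA gene thus also covers bases beside it. Counts on tRNA genes, 0 included, need not give the level of the tRNA.

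Each mouse had between 20904150 and 21984477 counts on genes, and normalization factors ranged from 0.832 to 1.21. Y-linked genes held at least 2300 counts in each male and at most 21 in each female. Muscle fiber markers (Acta1, Ckm, Des, Mb and Ttn) were abundant in every mouse, with a summed level of 43662 to 111189 CPM (counts per 1000000 of the scaled library). Genes of hepatocytes, which are not part of muscle, summed to at most 2350 CPM in corticosterone-treated females (F10). The highest sums of corticosterone-treated and vehicle males were 2362 CPM (M8) and 1413 CPM (M9), against group medians between 102 and 198 CPM. The means of the corticosterone groups, 748 CPM in females and 713 CPM in males, show that further treated mice lay well above these medians. Comparisons without F10 and M8 left those mice in.

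Some mitochondrial genes had near-identical copies in the nuclear genome, and these were mapped first, since pairs with several positions were not counted. A stretch of the mitochondrial genome from position 6390 to 11042 (GRCm38, mitochondrial chromosome) was matched by 7 annotated pseudogenes in a row on the minus strand of chromosome 1, chr1:24611535-24616197. The match covered the end of mt-Co1 and the genes mt-Co2, mt-Atp6, mt-Co3, mt-Nd3 and mt-Nd4l, and ended 876 bases into mt-Nd4. The aligned stretches were 99.7% to 100% identical, and the spaces between neighbouring pseudogenes were as long as those between the mitochondrial genes in 5 of 6 cases and 1 base longer (74 against 73) in the other. With reads of 100 bases, 97.6% to 99.9% of all 100-base windows of mt-Co2, mt-Atp6, mt-Co3, mt-Nd3 and mt-Nd4l occurred letter for letter in a nuclear gene. This share was 30.8% in mt-Co1, 60.8% in mt-Nd4, 3.19% in mt-Nd2 and 0% in mt-Nd1, mt-Nd5, mt-Nd6, mt-Cytb and both rRNA genes. mt-Atp8 lies inside the copied stretch but had no annotated copy of its own outside its last 43 bases, which it shares with mt-Atp6.

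The next sequences show 3 degrees of likeness, each as 100 bases of the transcript strand, 5′ to 3′, taken from the GENCODE M21 transcripts, with capitals at the bases where the mitochondrial gene and its copy differ. The first pair (chrM:7013-7112, plus strand, and chr1:24615466-24615565, minus strand) is the start of mt-Co2 and holds no difference.
mt-Co2: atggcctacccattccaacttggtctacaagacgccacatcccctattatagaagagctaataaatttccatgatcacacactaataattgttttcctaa
Gm28661: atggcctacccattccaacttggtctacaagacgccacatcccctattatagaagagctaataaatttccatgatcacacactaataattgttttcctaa
The second pair (chrM:9459-9558, plus strand, and chr1:24613020-24613119, minus strand) is the start of mt-Nd3, with 1 difference.
mt-Nd3: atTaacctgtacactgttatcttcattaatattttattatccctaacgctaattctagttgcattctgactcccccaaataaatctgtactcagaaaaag
Gm28438: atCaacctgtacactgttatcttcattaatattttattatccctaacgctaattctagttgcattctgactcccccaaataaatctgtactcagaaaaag
The third pair (chrM:14146-14245, plus strand, and chr4:80003990-80004089, plus strand) comes from mt-Cytb, a gene outside the copied stretch, and holds 5 differences in 100 bases.
mt-Cytb: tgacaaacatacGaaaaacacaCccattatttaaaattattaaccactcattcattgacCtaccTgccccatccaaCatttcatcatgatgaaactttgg
Gm11410: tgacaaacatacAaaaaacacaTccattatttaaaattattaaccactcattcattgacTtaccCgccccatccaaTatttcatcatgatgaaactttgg

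Counts were few on the genes inside this stretch. The 6 mRNA genes mt-Nd1, mt-Nd2, mt-Co1, mt-Nd4, mt-Nd5 and mt-Cytb held 96.5% of all mitochondrial counts of the 23 mice, and between 95.3% and 97.2% in single mice. The 2 rRNA genes held 3.49%. The 6 mRNA genes inside the copied stretch (mt-Co2, mt-Atp8, mt-Atp6, mt-Co3, mt-Nd3 and mt-Nd4l) together held 0.0265%, which is 9632 counts over all mice. Since only pairs with a unique position were counted, the values of these 6 genes may not give the level of their RNA and are reported as uncertain. mt-Atp8 was as low as the others although its windows had no identical annotated copy, and copies outside annotated genes were not searched. The pseudogenes of the stretch together had 227 to 820 counts per mouse (median 502). The named pseudogenes had at most 270 counts in a mouse and were chosen for their sequence. The 5 tRNA genes inside the stretch had 0 counts, but so had tRNA genes outside it, with 13 of all 22 at 0 in every mouse. The plot of levels per length shows the drop at the borders of the stretch.

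**Figure D1:**
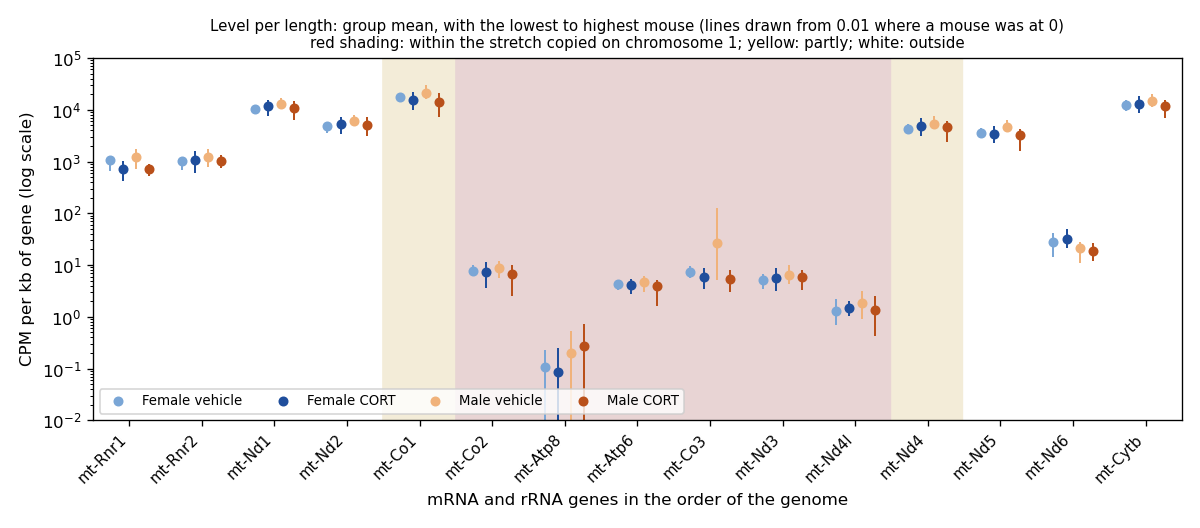
Level of the 13 mRNA and 2 rRNA genes per kb of gene (CPM per kb, log axis), in the order of the genome. Points are group means and lines run from the lowest to the highest mouse of a group. Genes within the stretch copied on chromosome 1 (red) lie orders of magnitude below mt-Nd1, mt-Nd2, mt-Co1, mt-Nd4, mt-Nd5 and mt-Cytb, and the line of mt-Co3 in vehicle males is carried by 1 mouse.

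Read pairs without a unique position have an entry of their own in the table, and this entry was between 5.63% and 10.5% of all pairs. The lowest value was that of M8 and the highest that of vehicle male M3, the mice with the lowest and the second highest share of mitochondrial mRNA. In males it was 9.12% ± 0.946 (SD, n = 6) with vehicle and 7.12% ± 1.04 (n = 6) with corticosterone, and 5 of 6 corticosterone-treated males lay below all vehicle males. In females it was 8.28% ± 0.905 (n = 6) with vehicle and 8.35% ± 1.46 (n = 5) with corticosterone. Which genes these pairs came from cannot be read from the table.

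**Figure D2:**
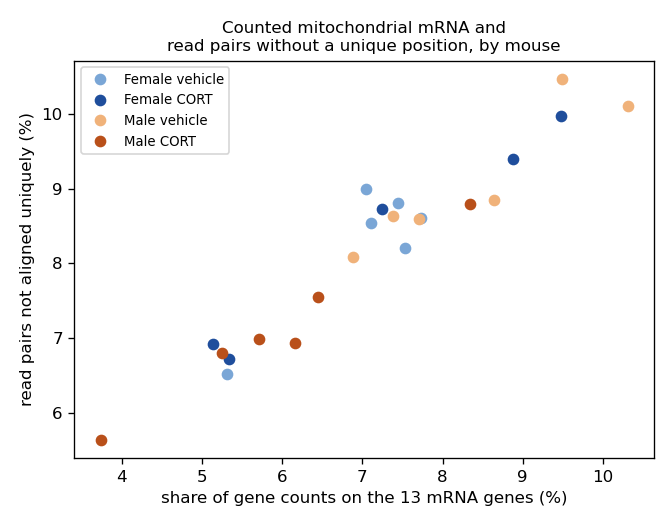
Read pairs that aligned to more than 1 position (% of all pairs, y axis) against the share of gene counts on the 13 mRNA genes (%, x axis), with 1 point per mouse. The mice line up from male M8 of the corticosterone group (3.74% and 5.63%) at the lower left to vehicle males M3 and M5 at the upper right.

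Of the genes that could be counted, mt-Co1, which encodes the core catalytic subunit of complex IV, held the most counts, 269203 to 856223 per mouse. Per length, mt-Co1 stood at 17300 ± 4463 CPM per kb (SD over 23 mice) and was followed by mt-Cytb, the only mitochondrially encoded subunit of complex III, at 13143 ± 2853. mt-Nd1 was next at 11441 ± 2380 CPM per kb, and these 2 neighbours differed by less than the spread between mice. The other complex I genes were lower, with mt-Nd2 at 5326 ± 1170, mt-Nd4 at 4753 ± 1090 and mt-Nd5 at 3726 ± 942 CPM per kb, again within the spread of their neighbours. When only bases outside the identical windows were taken as length, mt-Co1 stood at 33328 ± 8598 and mt-Nd4 to 13047 ± 2993 CPM per kb, while mt-Nd2 stood at 6082 ± 1336, so the place of mt-Nd4 in this order depends on how its length is taken. The rRNAs were far lower, mt-Rnr1 (12S rRNA) at 933 ± 325 and mt-Rnr2 (16S rRNA) at 1076 ± 274 CPM per kb.

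mt-Nd6 is the only mRNA gene annotated on the minus strand, next to 8 of the 22 tRNA genes, and it encodes a subunit of complex I. It overlaps the end of mt-Nd5 on the other strand, and the counting used strand. mt-Nd6 had 124 to 504 counts per mouse, although none of its 100-base windows has an identical nuclear copy.

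Corticosterone was compared with vehicle in each sex first by the share of all gene counts. In vehicle males the 13 mRNA genes held 6.88% to 10.3% of the gene counts, with a median of 8.17%. With corticosterone they held 3.74% to 8.34%, with a median of 5.94%. The mean was 8.40% ± 1.32 (SD, n = 6) with vehicle and 5.94% ± 1.51 (n = 6) with corticosterone, a difference of -2.46 percentage points and a ratio of 0.708. Of the 6 corticosterone-treated males 5 lay below every vehicle male, and the exception, M10 at 8.34%, lay among them. Counting error was small beside this spread, since the 95% binomial interval (exact, Clopper-Pearson, counting error only) of a mouse's mitochondrial share reached at most 0.0132 percentage points to either side. In bulk tissue, fewer cells or fibers rich in mitochondria and less mitochondrial RNA per fiber cannot be told apart.

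In females the mRNA share was 5.32% to 7.74% with vehicle, with a median of 7.28%. The 5 corticosterone-treated females held 5.14%, 7.24%, 5.34%, 8.88% and 9.48%. The group means of 7.03% ± 0.879 (n = 6) and 7.22% ± 1.98 (n = 5) differed by 0.186 percentage points, less than the spread between mice. Corticosterone-treated females lay on both sides of the vehicle group, 2 above all vehicle females and 1 below all of them. Without F10, the female with the highest sum of hepatocyte genes, the difference was -0.380 points. As sums over genes chosen with earlier results known, these shares carry no p-value.

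The rRNA genes took 0.299% ± 0.0837 of the gene counts in vehicle males and 0.216% ± 0.0364 in corticosterone-treated males (n = 6 each). In females the values were 0.269% ± 0.0570 (n = 6) and 0.246% ± 0.0726 (n = 5), and the groups overlapped in both sexes. The 22 tRNA genes together had 72 to 289 counts per mouse. Their mean was 184 ± 72.7 counts in vehicle males, 156 ± 53.3 in corticosterone-treated males, 136 ± 49.1 in vehicle females and 162 ± 57.8 in corticosterone-treated females, all within the spread between mice.

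**Figure D3:**
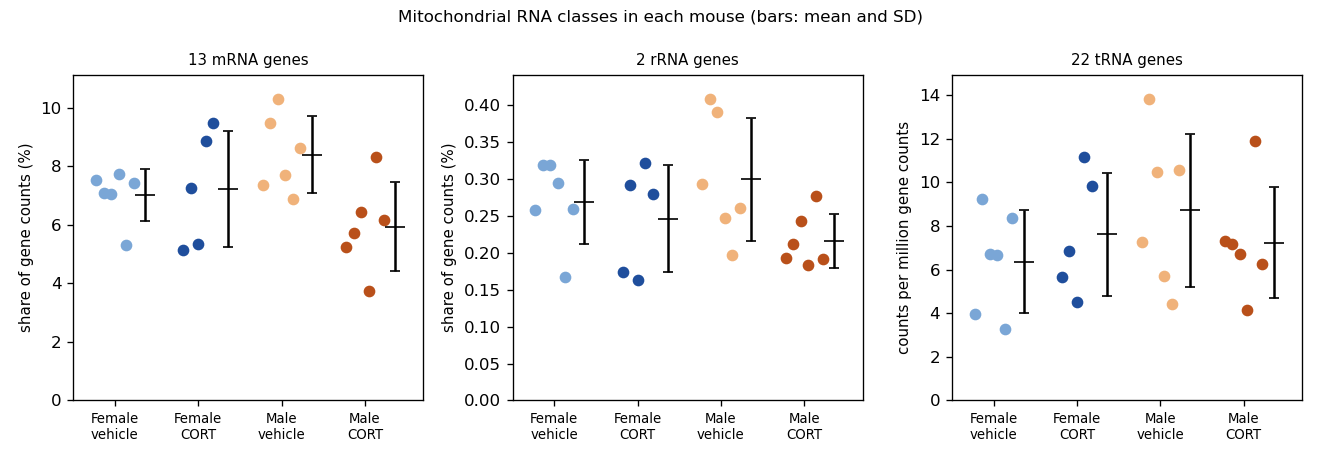
Share of gene counts on the 13 mRNA genes and the 2 rRNA genes (%) and counts per 1000000 gene counts on the 22 tRNA genes, with 1 point per mouse and the mean and SD beside each group. In males 5 of 6 corticosterone-treated mice lie below all vehicle mice for the mRNA genes, and in females the groups overlap for each class.

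Markers of fiber types and other cells were read beside these shares. The summed level of 7 type 2B and 2X fiber markers (Myh4, Myh1, Tnni2, Tnnt3, Tnnc2, Atp2a1 and Actn3) was 106258 to 134056 CPM in vehicle males and 127680 to 204782 CPM in corticosterone-treated males. In males 2 of the 7 genes (Atp2a1 and Actn3) passed the test as higher, beside 13.2% of all genes. The others did not pass in males, with log2 fold changes from -0.30 (Tnnc2) to 0.24 (Myh4), and the myosin Myh1 at -0.03. In females these sums overlapped (100193 to 156578 CPM with vehicle, 69707 to 145298 with corticosterone), and 1 of 7 genes (Tnnc2) was lower. Slow fibers are rich in mitochondria, and the sum of 8 slow fiber markers ranged from 49.7 to 5900 CPM across single mice, with no gene past the test in either sex. The mouse with the lowest mRNA share of its group was also lowest in the slow fiber sum among vehicle females (F9), vehicle males (M9) and corticosterone-treated males (M8), all between 49.7 and 50.3 CPM. Among corticosterone-treated females the mouse with the lowest mRNA share, F2, had the highest slow fiber sum, 3279 CPM. The type 2A fiber marker Myh2 was lowest in the mouse with the lowest mRNA share in every group. These mice were F9 (30.4 CPM), F2 (525.6 CPM), M9 (18.2 CPM) and M8 (21.98 CPM). Myh2 was highest in the mouse with the highest mRNA share only among vehicle males (M5). It did not pass the test in either sex. Of 5 erythrocyte markers 4 were called higher with corticosterone in each sex, beside 13.2% of all genes in males and 7.40% in females. Their sums were 142 ± 42.7 CPM in vehicle and 340 ± 170 CPM in corticosterone-treated males, and 184 ± 117 and 484 ± 118 CPM in females. Adipocyte markers (6 genes) spread from 267 to 6239 CPM among corticosterone-treated females and from 218 to 2591 CPM in the other groups, and Schwann cell markers (4 genes) from 40.7 to 277 CPM, with no gene of either list past the test. The brown adipocyte genes Ucp1 and Cidea summed to at most 80.7 CPM. The part of fiber content or other cells in the mitochondrial shares was not tested. Without M8 and F10 the male difference was -2.02 points.

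The single genes were then tested by the quasi-likelihood test of edgeR, and p-values were adjusted by Benjamini-Hochberg over all 13049 genes, with a threshold of 0.01. Values are CPM scaled by the trimmed mean of M-values. In males 1 of the 11 tested mRNA genes was called lower and 0 were called higher, where 13.1% of all genes tested were called lower and 13.2% higher. In females 0 of 11 were called, where 7.40% of all genes were called higher and 6.0% lower. By an unadjusted p under 0.05, 3 of 11 mRNA genes differed in males, beside 48.2% of all genes, and 0 of 11 in females, beside 38.6%. DESeq2 called 0 in either sex, but gave mt-Co3 no adjusted p. All 11 log2 fold changes lay below 0 in males, with a median of -0.30 beside -0.02 over all genes, of which 51.9% lay below 0. In females 5 of 11 lay below 0, with a median of 0.06 beside 0.04 over all genes. The mRNA genes share precursors and libraries, so these are not independent counts.

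The gene called in males was mt-Co3, a structural subunit of complex IV inside the copied stretch. Its log2 fold change of -2.36 (SE 0.60, adjusted p = 0.00363 by edgeR with Benjamini-Hochberg adjustment) rested on 1 vehicle male, M7, with 1968 counts. The other 22 mice had 55 to 184 counts. Without M7 the log2 fold change was -0.70 (adjusted p = 0.0289 by the same edgeR test). Without corticosterone-treated male M8 it was -2.24, with an adjusted p of 0.0103 by edgeR. The size of the change thus rested on M7.

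mt-Co1 was the abundant mRNA with the largest difference in males. It stood at 26490 to 43799 CPM in vehicle males, with a median of 31080 CPM. With corticosterone the 6 males had 11879 to 31021 CPM, with a median of 22569 CPM. All 6 lay below the vehicle mean, and the ranges overlapped. The log2 fold change was -0.57 (SE 0.20), and the adjusted p of 0.0260 (edgeR) missed the threshold. In females mt-Co1 was 26933 ± 3171 CPM with vehicle and 24266 ± 7197 CPM with corticosterone, and the log2 fold change was -0.15 (SE 0.21, adjusted p = 0.635, edgeR).

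mt-Nd5, a membrane subunit of complex I, differed by a similar amount. It stood between 7124 and 11206 CPM in vehicle males, with a median of 8044, and between 3052 and 7290 CPM in corticosterone-treated males, with a median of 6501. Its log2 fold change was -0.51 (SE 0.19, adjusted p = 0.0398, edgeR) in males and -0.08 (SE 0.20, adjusted p = 0.791) in females. The other complex I genes differed less in males, and none passed the test. mt-Nd1 gave -0.30 (SE 0.17), mt-Nd2 -0.27 (SE 0.18) and mt-Nd4 -0.24 (SE 0.19) on the log2 scale, with adjusted p-values of 0.165, 0.247 and 0.339 by edgeR. In females these 3 genes lay slightly above 0, at 0.17 (SE 0.18), 0.12 (SE 0.19) and 0.13 (SE 0.20). mt-Nd6 gave -0.17 (SE 0.24) in males and 0.20 (SE 0.25) in females.

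mt-Cytb of complex III was 17095 ± 3367 CPM in vehicle males and 13573 ± 3124 CPM in corticosterone-treated males. The log2 fold change of -0.33 (SE 0.18, adjusted p = 0.152, edgeR) was within the spread between mice. In females the change was 0.06 (SE 0.19), with 14452 ± 1977 CPM and 15020 ± 4155 CPM. The remaining members of the copied stretch, all uncertain, had low counts. mt-Co2, a copper-binding subunit of complex IV, had 41 to 161 counts per mouse, and its log2 fold change was -0.45 (SE 0.26) for males and -0.10 (SE 0.27) for females. mt-Atp6, part of the proton channel of the ATP synthase, had 26 to 85 counts and gave -0.29 (SE 0.22) and -0.10 (SE 0.23). mt-Nd3, a small complex I subunit, had 27 to 68 counts and gave -0.15 (SE 0.23) and 0.11 (SE 0.25). None of these passed the test. mt-Nd4l had 3 to 18 counts and mt-Atp8, a small subunit of the ATP synthase, 0 to 3 counts, and neither was tested.

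**Figure D4:**
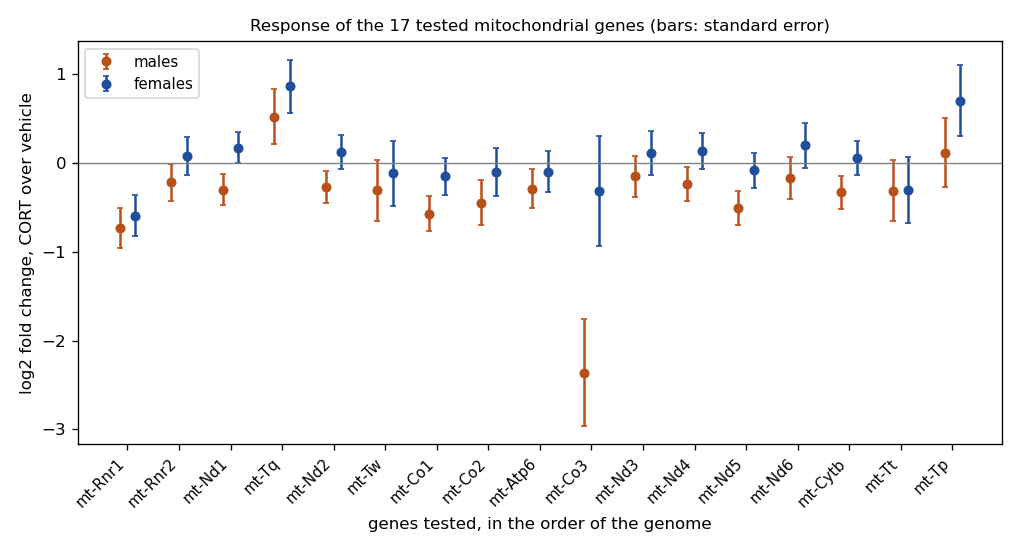
Log2 fold change of corticosterone over vehicle (y axis) for the 17 tested mitochondrial genes in the order of the genome, with the standard error, in males and females. All mRNA and rRNA genes lie below 0 in males, mt-Rnr1 lies below 0 in both sexes, and mt-Co3 in males (-2.36) rests on vehicle male M7.

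mt-Rnr1, the RNA of the small ribosomal subunit, lay lower with corticosterone in both sexes on average. Vehicle males had 705 to 1581 CPM (median 1048), and corticosterone-treated males had 522 to 829 CPM (median 721), each below the vehicle mean. Vehicle females had 656 to 1157 CPM (median 1123), and the corticosterone-treated females had 459, 937, 424, 900 and 657 CPM, again all below the vehicle mean. The ranges overlapped in both sexes. The log2 fold change was -0.73 (SE 0.22, adjusted p = 0.0113, edgeR) in males, and in females it was -0.59 (SE 0.23, adjusted p = 0.0616, edgeR). Neither passed 0.01, while DESeq2 called mt-Rnr1 in males (adjusted p = 0.00415), and edgeR called it in males in 6 of 23 fits that each left out 1 mouse. mt-Rnr2, the RNA of the large subunit, differed by -0.22 (SE 0.21) in males and 0.08 (SE 0.22) in females.

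The ratio of mt-Rnr1 to mt-Rnr2 counts compares both rRNAs within 1 mouse, so that library scaling drops out. It was chosen, like the mt-Co1 share and the mt-Nd6 measure given further on, after the values of the genes had been seen, so these 3 measures are a description and carry no p-value. The ratio was 0.551 to 0.642 (median 0.602) in vehicle males and 0.356 to 0.464 (median 0.434) in corticosterone-treated males. Vehicle females had 0.583 to 0.698 (median 0.635), and the corticosterone-treated females had 0.366, 0.456, 0.424, 0.369 and 0.393. No treated mouse reached the lowest vehicle mouse of its sex. The means were 0.600 ± 0.0293 and 0.424 ± 0.0411 in males (n = 6 each) and 0.636 ± 0.0402 (n = 6) and 0.402 ± 0.0385 (n = 5) in females. Males and females overlapped within each treatment. Between the rRNA genes lies 1 tRNA gene, mt-Tv, which had 0 counts in every mouse.

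The balance among the counted genes also differed for mt-Co1. Its share of all mitochondrial counts was 37.04% to 38.2% (median 37.1%) in vehicle males and 31.2% to 35.6% (median 33.5%) in corticosterone-treated males. It was 36.9% to 38.4% (median 37.8%) in vehicle females, and the corticosterone-treated females had 33.1%, 33.8%, 33.9%, 34.0% and 35.9%. The groups did not overlap in either sex. The difference of the means was -3.98 percentage points in males and -3.67 in females, and males and females overlapped within each treatment. Since shares of 1 total move against each other, the other genes are given as values only. mt-Nd1 went from 14.4% ± 0.747 to 15.6% ± 0.602 in males and from 13.8% ± 0.663 to 15.7% ± 0.442 in females, without overlap in females. mt-Nd2 went from 7.27% ± 0.327 to 8.05% ± 0.462 and from 6.98% ± 0.325 to 7.68% ± 0.235, likewise without overlap in females. mt-Cytb and mt-Nd4 also took larger shares with corticosterone, mt-Cytb by 1.30 points in males and 1.01 in females and mt-Nd4 by 1.11 and 0.850 points. The share of mt-Nd5 was lower by 0.633 points in males (9.68% and 9.04%) and by 0.452 points in females (9.06% and 8.61%), and its groups overlapped.

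**Figure D5:**
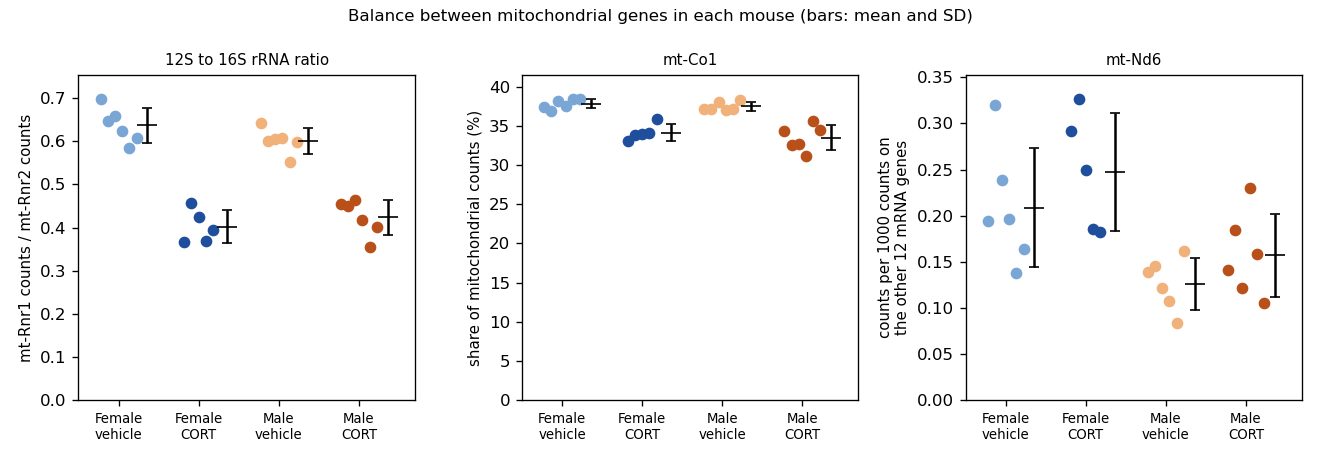
Ratio of mt-Rnr1 to mt-Rnr2 counts, mt-Co1 as a share of mitochondrial counts (%), and mt-Nd6 per 1000 counts on the other 12 mRNA genes, with 1 point per mouse and the mean and SD beside each group. In the first 2 panels every corticosterone-treated mouse lies below every vehicle mouse of its sex, and in the third the males lie lower than the females on average, with overlap.

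Of the 22 tRNA genes, 4 were tested, 13 had 0 counts in every mouse and 5 had up to 17 counts. mt-Tq, the tRNA for glutamine on the minus strand (chrM:3772-3842), had the largest difference of the tested tRNA genes and is shown whole, without capitals.
mt-Tq: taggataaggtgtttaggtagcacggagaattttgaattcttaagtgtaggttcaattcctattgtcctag
It had 7 to 24 counts (median 17.5) in vehicle females, and the corticosterone-treated females had 29, 24, 25, 37 and 40 counts. On the scaled values the groups still met (1.06 CPM in the highest vehicle female, 1.01 CPM in the lowest treated one). The log2 fold change was 0.86 (SE 0.30), and the adjusted p of 0.0398 (edgeR) missed the threshold. In males it was 0.52 (SE 0.31, adjusted p = 0.192, edgeR). mt-Tq passed the filter on low counts only through corticosterone-treated females, the group where it was highest. Its median was 17.5 counts in vehicle females, 10.5 in vehicle males and 15.5 in corticosterone-treated males. Differences of mt-Tq that involve treated females are thus a description and give no support for a change. mt-Tp, also on the minus strand, gave 0.70 (SE 0.40) in females and 0.11 (SE 0.39) in males. The plus-strand genes mt-Tw and mt-Tt gave -0.12 (SE 0.37) and -0.31 (SE 0.37) in females and -0.31 (SE 0.34) for both in males. By edgeR 0 of the 4 tRNA genes and 0 of the 2 rRNA genes were called in either sex, and DESeq2 called mt-Rnr1 in males and no tRNA gene. By an unadjusted p under 0.05, 1 tRNA gene (mt-Tq) and 1 rRNA gene (mt-Rnr1) differed in females, where 38.6% of all genes did. In males 0 tRNA genes and 1 rRNA gene did, beside 48.2% of all genes.

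Whether the response differed between the sexes was tested by the interaction of sex and treatment in the same model. Of the 11 mRNA genes 0 were called, where 0.690% of all genes were called in either direction, and DESeq2 also called 0. The only mRNA gene with an unadjusted p under 0.05, beside 32.1% of all genes, was mt-Co3 (edgeR adjusted p = 0.103), with M7 in the fit. For the 6 abundant mRNA genes the difference of the log2 fold changes (males minus females) ran from -0.47 to -0.37, with adjusted p-values of 0.185 to 0.363 by edgeR. The largest was mt-Nd1 at -0.47 (SE 0.24). For mt-Rnr1 it was -0.14 (SE 0.32, adjusted p = 0.785), and for mt-Rnr2 -0.30 (SE 0.30). A difference between the responses of males and females was thus not shown for any of these genes.

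Male and female mice were also compared within each treatment. Among vehicle mice 0 of 11 mRNA genes were called by edgeR, where 0.958% of all genes were called, 3 of 11 had an unadjusted p under 0.05 (mt-Co3, mt-Nd1 and mt-Nd5) beside 13.2% of all genes, and DESeq2 called 0. Without M7 the log2 fold change of mt-Co3 there went from 1.89 to 0.23. The 6 abundant mRNA genes were 0.24 to 0.40 higher in males on the log2 scale, with adjusted p-values of 0.359 to 0.640 by edgeR. Among corticosterone-treated mice 0 of 11 were called, where 23.3% of all genes were called in either direction, 1 of 11 had an unadjusted p under 0.05 beside 47.9% of all genes, and DESeq2 called 0. There the 6 abundant genes lay between -0.15 and -0.02. None of the rRNA or tRNA genes was called between the sexes. By an unadjusted p under 0.05, the tRNA gene mt-Tt was higher in males in both comparisons, and mt-Tq was lower in corticosterone-treated males, with a log2 fold change of -0.77 (SE 0.30, edgeR adjusted p = 0.0482). mt-Tq was tested only because corticosterone-treated females passed the filter, so its value here is a description.

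The mRNA gene with an unadjusted p under 0.05 among corticosterone-treated mice was mt-Nd6. Corticosterone-treated females had 325, 504, 288, 348 and 362 counts, and corticosterone-treated males had 141 to 282 (median 179). On the scaled values the groups overlapped, with 9.68 ± 2.71 CPM in males and 16.4 ± 4.79 CPM in females. The log2 fold change of males over females was -0.76 (SE 0.25), and the adjusted p was 0.0194 (edgeR). Among vehicle mice the change was -0.40 (SE 0.24, adjusted p = 0.522). Per 1000 counts on the other 12 mRNA genes, vehicle males had 0.0839 to 0.162 mt-Nd6 counts (median 0.130) and vehicle females 0.138 to 0.320 (median 0.196). Corticosterone-treated males had 0.106 to 0.230 (median 0.150), and the treated females had 0.292, 0.327, 0.250, 0.186 and 0.183. Vehicle males averaged 0.127 ± 0.0281 and vehicle females 0.209 ± 0.0643, and corticosterone-treated males 0.157 ± 0.0450 and females 0.247 ± 0.0638. The ranges of males and females overlapped in both treatments, and those of vehicle and corticosterone overlapped in both sexes.

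The nuclear genes that replicate, transcribe, process and modify mitochondrial DNA and RNA were read from the same fit. Of a list of 55 such genes, 53 were tested. In males 5 were called higher (9.43%, beside 13.2% of all genes) and 7 lower (13.2%, beside 13.1%), so the list was called about as often as other genes. The 5 higher genes were Polrmt (the mitochondrial RNA polymerase), Polg (the catalytic subunit of the DNA polymerase), Rrm2b (a ribonucleotide reductase subunit), Elac2 (which cuts the 3′ ends of tRNAs) and Ptcd1. Polrmt had a log2 fold change of 0.39 (SE 0.08, adjusted p = 0.000551, edgeR), Polg one of 0.37 (SE 0.06) and Ptcd1 one of 0.51 (SE 0.11). The largest falls were Primpol (-0.87, SE 0.21), a primase-polymerase, Mrm1 (-0.65, SE 0.18), which methylates 16S rRNA, and Lrpprc (-0.65, SE 0.17, adjusted p = 0.00430, edgeR), which binds and stabilizes mitochondrial mRNAs. Top1mt, Pnpt1, Rexo2 and Gtpbp3 were the others called lower. Slirp, the partner of Lrpprc, gave -0.21 (SE 0.12), the transcription factors Tfam and Tfb2m gave -0.19 (SE 0.09) and 0.19 (SE 0.06), and the helicase Twnk gave 0.24 (SE 0.15), none of them past the threshold.

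In females 0 of the 53 genes were called by edgeR, while 12 had an unadjusted p under 0.05, a smaller share than the 38.6% of all genes, and DESeq2 called 2 (Top1mt and Tk2). Tfam gave -0.31 (SE 0.10, adjusted p = 0.0205), Twnk -0.45 (SE 0.15, adjusted p = 0.0344), Slirp -0.32 (SE 0.12), Lrpprc -0.25 (SE 0.18), Polrmt -0.17 (SE 0.08), Polg 0.06 (SE 0.06) and Tfb2m -0.02 (SE 0.07), by edgeR. The interaction called 0 of the 53 genes by edgeR, where 0.690% of all genes were called, and 2 by DESeq2. It had 12 at an unadjusted p under 0.05, a smaller share than the 32.1% of all genes. Its smallest adjusted p was that of Polrmt, 0.0104 (edgeR), with a difference of 0.56 (SE 0.11) between the responses of males and females.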

How the data were processed

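Quadriceps RNA of 23 mice was sequenced from stranded, mRNA-enriched libraries as read pairs of 100 bases. Per the labels and methods, the authors aligned the pairs to mm10 with STAR 2.7.3a, counted uniquely assigned pairs by strand with HTSeq 0.12.4, and deposited raw counts per gene, without normalization. The 5 summary entries stayed out of library sizes and tests, and 0 columns were left unmapped. Genes were named from GENCODE M21 (GRCm38). Identical stretches in annotated nuclear genes were found with blastn 2.17.0 among reference transcripts, since the genome sequence was not used here. Groups came from the labels.

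Counts were tested in R 4.3.3 with edgeR 4.0.16 (quasi-likelihood, TMM, 1 mean per group), on the 13049 genes that exceeded 20 scaled counts in 4 or more mice of any group, at an adjusted p under 0.01. The study's methods name DESeq2, and version 1.42.0 was an alternative here. The fit was also run on simulated counts with changes set in corticosterone-treated males only, and the outcome is not given here as support. Other alternatives were scaling, filters, thresholds, left-out mice, each sex alone and a block on mouse numbers. Replicates were compared for repeated libraries, and the least chi-square statistic divided by its degrees of freedom was 13.2 in 55 pairs, well above sampling noise. Same-numbered mice of both sexes (11 pairs) had correlations of their deviations from -0.377 to 0.477, and nothing says that numbers pair them.

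All 37 genes are members, and the mRNA, rRNA and tested tRNA genes are named. From the list of nuclear genes, 7 genes and the 4 largest changes past the threshold per sex are named, and further ones were named after their values were seen. Nuclear copies are named for their sequence, also after the values were seen. Members and lists were chosen with earlier results of these data known.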

Additional observations from a re-analysis of the deposited data

Results flagged for a closer look

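Values of 24 measures (shares, ratios and scaled levels of the tested genes) were checked in each of the 4 groups for 1 mouse standing far from the others, 96 checks in all. Of these 4 stood out, and chance flags about 1 in 20 groups. Vehicle female F9 had the lowest share of mitochondrial mRNA, 5.32% of the gene counts, where the other 5 had 7.05% to 7.74%. The same mouse had the lowest share of pairs without a unique position, 6.51% against 8.20% to 9.002%. Vehicle male M7 had 94.1 CPM of mt-Co3, where the other vehicle males had 4.21 to 8.45 CPM. Corticosterone-treated male M10 had 2.47 CPM of mt-Tp, where the others had 0.850 to 1.13 CPM, a gene with few counts. None of the 17 tested genes passed the test of a difference between the responses of males and females.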

How the results depend on the processing

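In males 1 mitochondrial mRNA gene was called. DESeq2, each sex fitted alone, and leaving out F10 and M8 gave 0, and library size only or an adjusted p under 0.05 gave 3 (mt-Co1, mt-Co3 and mt-Nd5). Leaving out single mice gave 0 to 1, with 0 without M7 or without M8. Between corticosterone-treated males and females 0 were called, against 1 (mt-Nd6) with library size only (adjusted p = 0.00636, edgeR), at an adjusted p under 0.05, and with the replicate block. The block on mouse numbers gave mt-Nd6 a log2 fold change of -0.66 (adjusted p = 0.00839, edgeR) and called 0 mRNA genes in the interaction and between vehicle mice. It turned the interaction of mt-Rnr1 to 0.012. Nothing says that same-numbered mice are related, and 7 of 11 pairs had a correlation over 0.1, so whether the numbers pair the mice was not settled.

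Of the list of nuclear genes, 12 were called in males, against 5 without a filter, 19 at an adjusted p under 0.05 and 0 with an added limit of 1 on the log2 fold change. In females 0 were called, against 2 by DESeq2, 4 at an adjusted p under 0.05, and 0 to 4 when single mice were left out (1 each without F3 or F11, 2 without F4, 4 without F8). The share of all genes called under each alternative is not given. The counts of this paragraph and the last thus show only how the calls moved, and not whether the members differed from other genes.

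Small differences changed sign. Without F10 and M8 the interaction of mt-Atp6 was 0.064, mt-Cytb in females was -0.00065, and the mt-Co1 share of corticosterone-treated males minus females was 0.225 points. Leaving out single mice moved the interaction of mt-Rnr1 between -0.25 and 0.0055. In females it moved mt-Rnr2 between -0.094 and 0.21, mt-Co2 between -0.30 and 0.066, mt-Nd3 between -0.073 and 0.25, mt-Nd4 between -0.022 and 0.23, mt-Nd5 between -0.22 and 0.014, and mt-Cytb between -0.080 and 0.16. Of 1639 alternative log2 fold changes, 1607 kept direction and side of the threshold. Between corticosterone-treated males and females, 12 other genes gave 371 further values, of which 44 changed sign and 0 passed the threshold. The causes were not tested.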
